A study of Mus musculus with 8 samples.

Results

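Resident macrophages of the liver were followed through 10 of their genes in whole-liver RNA, among 22059 gene symbols in the deposited tables. The genes were chosen by name as known markers of Kupffer cells and tissue macrophages: Emr1 (the older symbol of Adgre1, which encodes the F4/80 antigen), Clec4f, Timd4, Vsig4, Cd5l, Marco, Cd163, Csf1r, Cd68 and Mertk. All 10 symbols were in the tables, and all 10 passed the filter on low counts that left 17081 genes for testing. Poly(A) RNA of whole liver from wild-type FVB/NJ mice had been sequenced at 4 stages, E18 (embryonic day 18), P14 (postnatal day 14), P28 (postnatal day 28) and adult (3 months), with 2 samples at each stage. No treatment was given, and the strain was the same in every group. The labels give neither sex nor litter. The study's methods describe adult livers from males at 3 months, without tying this to the sequenced samples.

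Kupffer cells are the macrophages that line the liver sinusoids. They are seeded before birth by fetal macrophages and monocytes, renew themselves in place, and depend on signalling through Csf1r. They clear bacteria, aged red cells, platelets and debris from portal blood, and scavenger, complement and phosphatidylserine receptors on their surface carry out this work. Before birth the liver is also the main site of blood formation, where macrophages engulf the nuclei that maturing red cells expel.

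Depth was high, with between 68154675 and 106055723 reads counted on genes per library. Levels are given as RPKM (reads per kilobase of transcript and per 1000000 reads) after TMM scaling, which sets the bulk of genes equal between libraries. This choice mattered most against E18: with library size alone in place of TMM, the median log2 change of all genes moved by -0.87 from E18 to P14 and by -0.85 from E18 to adult, and by under 0.03 in the other comparisons. A gene passed the test at a false discovery rate (FDR) below 0.1 in edgeR's quasi-likelihood test, and was called when it also changed more than 3-fold. In whole tissue, fewer macrophages and less RNA per macrophage cannot be told apart.

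The 10 genes fell into 3 patterns. Clec4f, Vsig4 and Cd163 rose steeply between E18 and P14, Marco fell steeply after P14, and the other 6 changed by less. The bases just upstream of the annotated start (RefSeq, GRCm38.p6) are shown for the 3 genes that rose and for Marco, so that genes with opposite courses can be read side by side. Capitals mark the GAGGAA core bound by PU.1 (Sfpi1), the founding transcription factor of macrophages, and TGCTGA, part of the site of Maf factors, on either strand. The windows are chr6:83656117-83656366 on the minus strand for Clec4f, chrX:96293439-96293688 on the minus strand for Vsig4, chr6:124304401-124304650 on the plus strand for Cd163 and chr1:120505025-120505274 on the minus strand for Marco, each written 5′ to 3′ on the gene's strand.
Clec4f: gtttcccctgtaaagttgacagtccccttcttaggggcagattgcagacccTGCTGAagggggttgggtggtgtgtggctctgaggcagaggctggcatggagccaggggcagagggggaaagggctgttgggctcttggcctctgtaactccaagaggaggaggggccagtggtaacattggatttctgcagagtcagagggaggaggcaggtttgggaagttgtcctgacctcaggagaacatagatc
Vsig4: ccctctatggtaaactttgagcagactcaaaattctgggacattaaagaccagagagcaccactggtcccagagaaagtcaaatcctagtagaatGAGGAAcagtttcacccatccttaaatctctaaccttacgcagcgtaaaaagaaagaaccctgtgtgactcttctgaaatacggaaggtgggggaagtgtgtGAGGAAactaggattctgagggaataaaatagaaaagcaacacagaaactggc
Cd163: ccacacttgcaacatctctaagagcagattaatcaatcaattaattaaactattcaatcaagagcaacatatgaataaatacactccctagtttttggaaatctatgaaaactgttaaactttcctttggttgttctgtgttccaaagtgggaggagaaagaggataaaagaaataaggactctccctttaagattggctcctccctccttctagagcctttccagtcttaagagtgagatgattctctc
Marco: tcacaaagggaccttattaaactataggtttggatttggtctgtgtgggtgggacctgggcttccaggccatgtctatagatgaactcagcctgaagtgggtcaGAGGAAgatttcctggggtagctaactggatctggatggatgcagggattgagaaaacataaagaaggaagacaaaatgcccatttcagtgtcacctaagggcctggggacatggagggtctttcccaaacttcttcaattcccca

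RefSeq windows were at hand for 8 of the 10 genes, all but Emr1 and Csf1r. Vsig4 held GAGGAA at 2 places, starting 155 and 53 bases before the start, and Marco held it once, 146 bases before. Clec4f held 1 TGCTGA, 199 bases before its start, and Cd163 held no match to either motif. Over the 8 windows, GAGGAA was in 4 and TGCTGA in 3, and the E-box CACGTG, which reads the same on both strands, was in 0. Among all 32851 windows of the same 250 bases, 23.3% held GAGGAA, 16.1% TGCTGA and 6.02% CACGTG. Vsig4 and Marco, which moved in opposite directions, both held GAGGAA. The matches describe letters in a window and not binding.

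**Figure D1:**
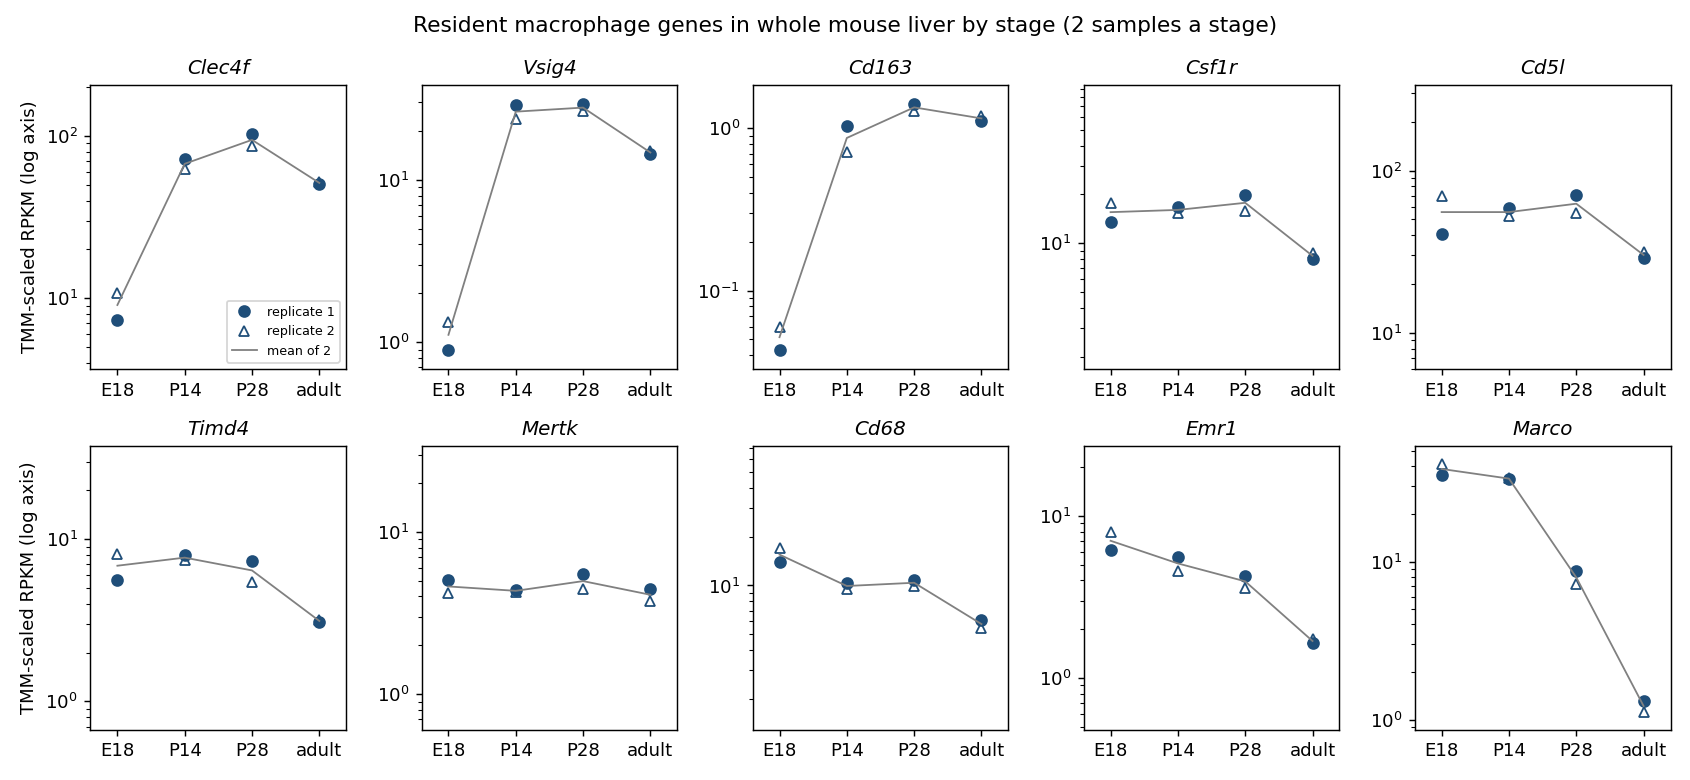
Level of each of the 10 genes in each library, as TMM-scaled RPKM on a log axis, by stage. Filled circles are replicate 1, open triangles replicate 2 and lines join the means of 2. Clec4f, Vsig4 and Cd163 climb from E18 to P14, Marco falls from P14 on, and most genes are lower in adult than at P28.

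Clec4f, a C-type lectin made by Kupffer cells and by few other cells, had 7.35 and 10.8 TMM-scaled RPKM in the E18 libraries. It stood at 71.8 and 63.0 by P14 and was 103.0 and 86.3 at P28, then 50.8 and 52.0 in adult. No later library came near the E18 pair, and P28 was the highest stage. The rise from E18 to P14 was 7.42-fold (log2 change 2.89 ± 0.18 SE, FDR = 8.8e-07, edgeR), with a smaller rise to P28 (log2 change 0.49 ± 0.17, FDR = 0.043, edgeR). Between P28 and adult it fell 1.84-fold (FDR = 0.011, edgeR) and stayed 5.66-fold above E18.

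Vsig4, the complement receptor CRIg that takes up C3-coated particles from the blood, had 178 and 232 reads at E18, or 0.896 and 1.32 TMM-scaled RPKM. It reached 29.0 and 23.7 by P14, 29.4 and 26.4 at P28, then 14.5 and 15.1 in adult. The P14 and P28 libraries overlapped, and both pairs lay above the adult pair. Its rise from E18 to P14 was 23.8-fold (log2 change 4.57 ± 0.19, FDR = 7.5e-08, edgeR). The step from P14 to P28 did not pass (log2 change 0.08 ± 0.16, FDR = 0.70, edgeR), and the fall to adult was 1.89-fold (FDR = 0.0074, edgeR).

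Cd163, the scavenger receptor for haemoglobin bound to haptoglobin, had the lowest mean of the 10 at every stage. In adult its mean was close to that of Marco (1.15 and 1.22), and Marco was the lower in adult replicate 2. Only 27 and 33 Cd163 reads were counted at E18, against 425 and 286 by P14, 506 and 413 at P28, then 292 and 354 in adult. In TMM-scaled RPKM the levels were 0.0433 and 0.0600, then 1.03 and 0.714, 1.41 and 1.29, and 1.12 and 1.19. Every later library held far more Cd163 reads than the E18 pair. The gain was 16.9-fold from E18 to P14 (log2 change 4.08 ± 0.25, FDR = 6.6e-07, edgeR) and a further 1.54-fold to P28 (FDR = 0.03, edgeR). Unlike most of the others it did not pass from P28 to adult (log2 change -0.23 ± 0.20, FDR = 0.50, edgeR).

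Marco, a scavenger receptor for bacteria and particles, had the widest range. Its levels were 35.4 and 41.6 TMM-scaled RPKM at E18, 33.4 and 33.5 by P14, 8.68 and 7.19 at P28, then 1.32 and 1.12 in adult. By mean it ranked second of the 10 at E18 and ninth in adult. The 2 adult libraries held 152 and 148 Marco reads, against 9764 and 10099 at E18. The change from E18 to P14 did not pass (log2 change -0.20 ± 0.12, FDR = 0.16, edgeR). It then fell 4.21-fold from P14 to P28 (log2 change -2.08 ± 0.13, FDR = 6.8e-06, edgeR) and 6.52-fold from P28 to adult (log2 change -2.71 ± 0.14, FDR = 3.3e-05, edgeR), so that E18 exceeded adult 31.6-fold.

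Cd5l, a secreted protein of the same cysteine-rich scavenger receptor family that macrophages make in quantity, was the highest of the 10 at E18. Its libraries stood at 40.9 and 70.1 TMM-scaled RPKM at E18, 58.7 and 52.4 by P14, 70.4 and 54.7 at P28, then 28.7 and 31.7 in adult. The E18 pair enclosed both P14 values, and only the adult pair stood apart. The change from E18 to P14 was 0.00027 on the log2 scale with a standard error of 0.22, and the change from P28 to adult was a 2.07-fold fall (FDR = 0.017, edgeR).

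Timd4, a receptor for phosphatidylserine on dying cells that marks macrophages of fetal origin, had 5.58 and 8.14 TMM-scaled RPKM at E18, 7.98 and 7.40 by P14, 7.37 and 5.46 at P28, then 3.10 and 3.17 in adult. Neither of the first steps passed (FDR = 0.45 and 0.30, edgeR), and the fall from P28 to adult was 2.05-fold (FDR = 0.011, edgeR). Emr1, the adhesion receptor behind the F4/80 antigen, was lower at each stage than at the one before, with no overlap between libraries. It had 6.14 and 7.89 TMM-scaled RPKM at E18, 5.58 and 4.59 by P14, 4.28 and 3.61 at P28, then 1.65 and 1.74 in adult. Its 3 falls were 1.38-fold (FDR = 0.022), 1.29-fold (FDR = 0.085) and 2.33-fold (FDR = 0.0019) by edgeR.

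Csf1r, the receptor for the growth factors that keep macrophages alive, had 13.5 and 17.7 TMM-scaled RPKM at E18, 16.7 and 15.4 by P14, 19.8 and 15.8 at P28, then 8.06 and 8.69 in adult. The first 3 stages overlapped and the adult pair lay below them, with a 2.12-fold fall from P28 (log2 change -1.09 ± 0.15, FDR = 0.0023, edgeR). Cd68, a lysosomal membrane protein of macrophages, had 13.9 and 17.1 TMM-scaled RPKM at E18, 10.3 and 9.52 by P14, 10.9 and 9.92 at P28, then 6.09 and 5.48 in adult. It fell 1.56-fold from E18 to P14 (FDR = 0.0021, edgeR) and 1.80-fold from P28 to adult (FDR = 0.0054, edgeR). Mertk, a kinase receptor for the engulfment of dying cells, ranged only from 3.74 to 5.49 TMM-scaled RPKM over the 8 libraries and passed at no step under TMM scaling. Its log2 change from E18 to adult was -0.17 ± 0.14 (FDR = 0.29, edgeR) under TMM. With library size alone Mertk passed as lower, at -0.96 from E18 to P14 and -1.03 from E18 to adult (FDR = 0.00012, edgeR), near the change of the median gene under that scaling.

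**Figure D2:**
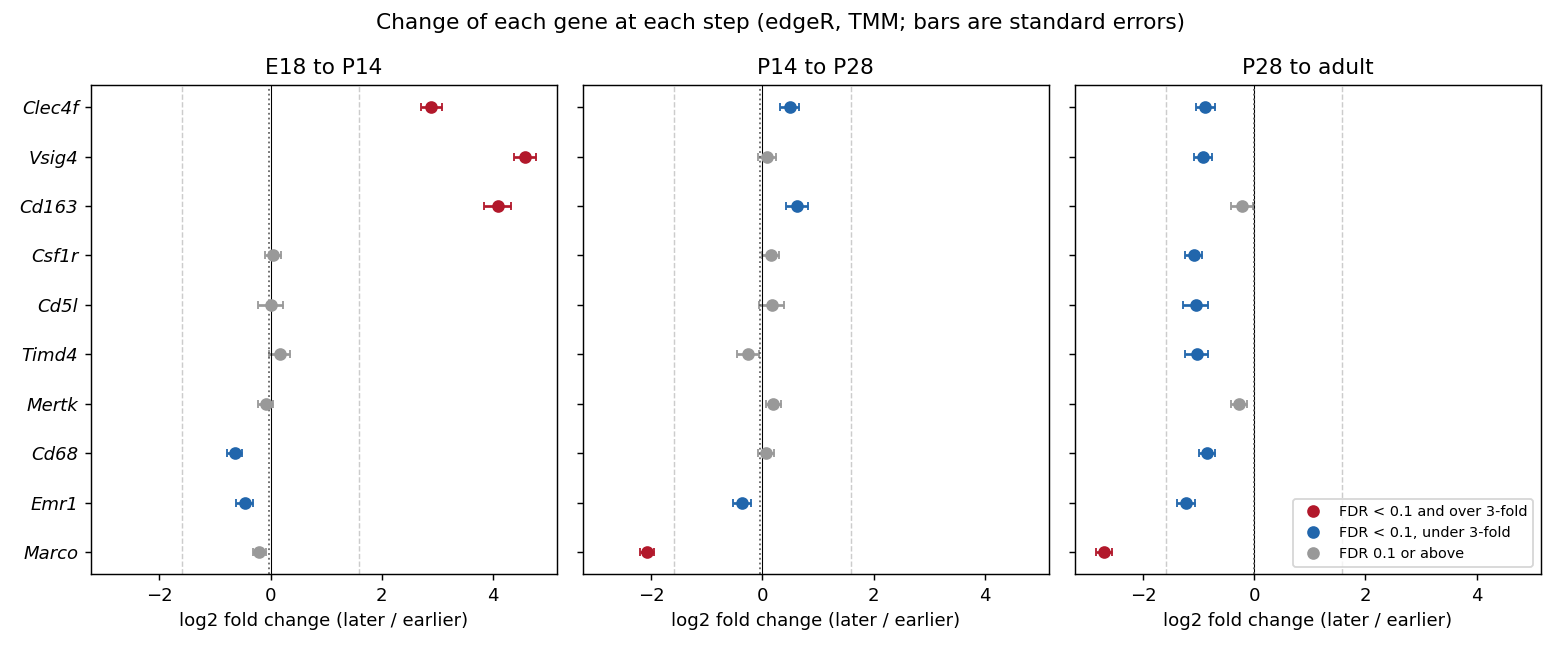
Change of each gene at each of the 3 successive steps, as the log2 fold change of the later over the earlier stage with its standard error (edgeR, TMM scaling, 2 samples a stage). Red points passed the FDR and changed over 3-fold, blue points passed the FDR alone and grey points did not pass. Dashed lines mark 3-fold and the dotted line the median of all genes tested. At the last step all 10 points lie left of 0, and 8 of them passed the FDR.

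From E18 to P14, 3 of the 10 genes passed the test upward (Clec4f, Vsig4, Cd163), 2 downward (Emr1, Cd68) and 5 did not pass. All 3 that rose were called over 3-fold, and 0 fell over 3-fold. Among all genes tested, 38.2% passed upward and 39.3% downward, with 13.8% and 15.4% also past 3-fold, so that E18 to P14 was a time of change for much of the liver transcriptome. The median log2 change of the 10 was 0.02, against -0.03 for all genes. With library size alone, the 3 genes still rose over 3-fold (log2 change 2.03 for Clec4f, 3.71 for Vsig4 and 3.22 for Cd163). The direction of Timd4, Cd5l and Csf1r turned (to -0.70, -0.86 and -0.82, against -0.90 for the median gene), and these 3 then passed as lower at P14, with FDR between 0.00054 and 0.0061 (edgeR), as did Emr1, Marco, Cd68 and Mertk.

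From P14 to P28 the panel moved little apart from Marco. Clec4f and Cd163 passed upward, Emr1 and Marco downward and 6 did not pass, with 0 called up and 1 called down past 3-fold (Marco). The shares of all genes were 25.2% upward and 28.6% downward, and 3.61% and 5.98% past 3-fold.

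From P28 to adult the movement was downward throughout. Of the 10 genes, 8 passed as lower in adult, 0 as higher, and Cd163 and Mertk did not pass. At an unadjusted p under 0.05 the counts were also 8 and 0. Among all genes tested, only 13.2% passed downward and 7.94% upward, and the median log2 change was -0.98 for the 10 against 0 for all. Most of these falls were close to 2-fold, between 1.80-fold for Cd68 and 2.33-fold for Emr1, and only Marco went past 3-fold. The shares past 3-fold were 2.24% down and 0.767% up. Both adult libraries lay below both P28 libraries for all 10 genes, by a margin within rounding for Mertk.

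From E18 to adult, 3 genes passed upward, 6 downward and 1 (Mertk) did not, with 39.5% and 43.8% of all genes passing in those directions. Those called over 3-fold were Vsig4 (13.3-fold), Cd163 (22.3-fold) and Clec4f upward and Marco and Emr1 (4.14-fold) downward, against 16.8% and 23.8% of all genes. With library size alone, Timd4, Cd5l, Csf1r and Cd68 were also called down (log2 changes from -1.72 to -2.27), so that 9 of the 10 were called. Under that scaling 6159 of the 17081 genes tested were called down and 1653 up, and the median gene changed by -0.95. From P14 to adult, 0 passed upward, 8 downward and 2 (Cd163, Mertk) did not, where 29.0% of all genes passed upward and 32.1% downward. Of these, Marco (27.5-fold) and Emr1 (3.01-fold) were past 3-fold, where 11.1% of all genes were called down and 4.35% up. Emr1 was at the edge of the threshold: its fall came below 3-fold with median-ratio or library-size scaling, with DESeq2, and without P14 replicate 1 or adult replicate 1 (log2 changes of -1.44 and -1.55).

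Duplicates at E18 and at P28 differed as a panel. At E18, 9 of the 10 genes were higher in replicate 2 than in replicate 1, with a median ratio of 1.35, while the median gene stood at 1.02. Cd5l differed most, 1.72-fold. At P28 all 10 genes were lower in replicate 2, with a median ratio of 0.833 against 0.986 for all genes. The other tissue macrophage genes leaned the same way, with 21 of 25 higher in replicate 2 at E18 and 3 of 25 at P28. At P14, 1 of the 10 genes and 10 of the 25 were higher in replicate 2, with median ratios of 0.906 and 0.971. In adult, 7 of the 10 and 15 of the 25 were higher in replicate 2. Without E18 replicate 1, the change of Cd5l from E18 to P14 was -0.34 and passed the test (FDR = 0.097, edgeR).

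To compare the genes without scaling between libraries, each was also set against Csf1r in the same library, as a ratio of reads per base of transcript. Cd5l kept a near-constant ratio to Csf1r: 3.50 ± 0.66 (SD, n = 2) at E18, followed by 3.45 ± 0.086 at P14, 3.51 ± 0.068 at P28 and finally 3.60 ± 0.056. Timd4 stayed between 0.346 and 0.479 in all 8 libraries. Neither ratio passed from E18 to adult (log2 change 0.05 ± 0.22 for Cd5l and -0.22 ± 0.25 for Timd4, limma).

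Clec4f went from below Csf1r to above it, with ratios of 0.547 and 0.612 at E18, 4.30 and 4.08 by P14, 5.21 and 5.47 at P28, then 6.31 and 5.98 in adult. Vsig4 rose from 0.0668 and 0.0750 to 1.74 and 1.53, and then held at 1.49 to 1.79 in the P28 and adult libraries. Cd163 rose from 0.00328 and 0.00345 at E18 to 0.0619 and 0.0464 at P14, and to 0.139 and 0.137 in adult. Relative to Csf1r, then, Vsig4 had its adult value by P14, while the means of Clec4f and Cd163 were higher at each later stage. The ratio of Marco was 2.64 and 2.35 at E18, 2.00 and 2.17 by P14, 0.439 and 0.456 at P28, then 0.164 and 0.130 in adult.

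**Figure D3:**
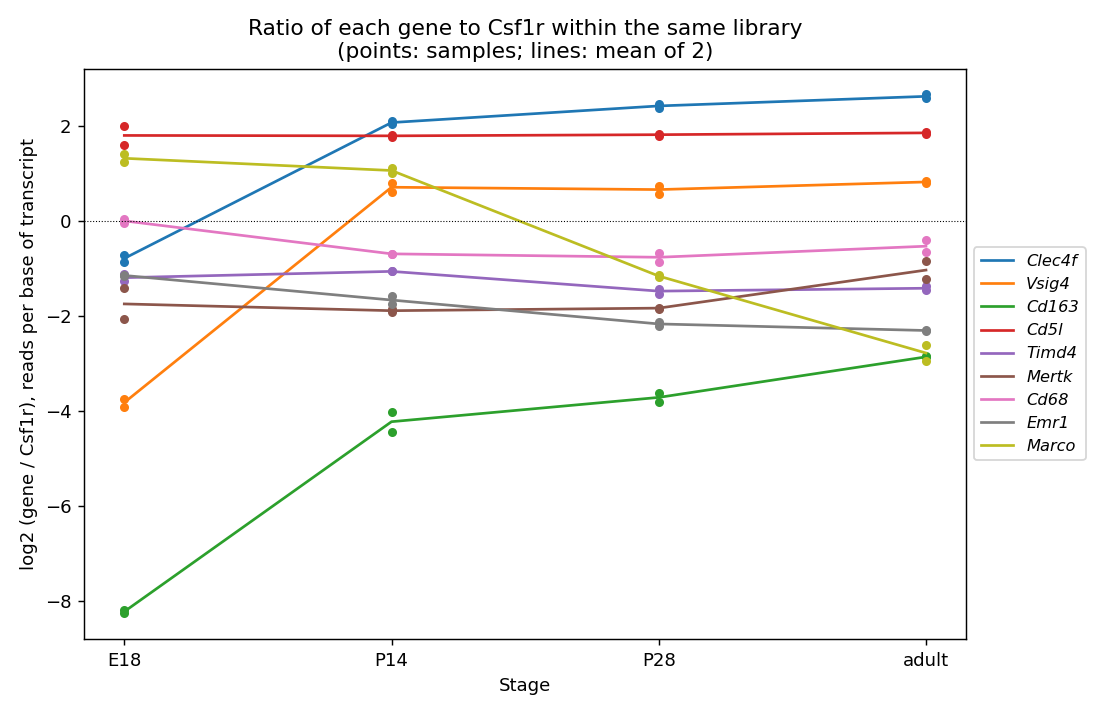
Ratio of each gene to Csf1r within the same library (log2 of reads per base of transcript) by stage. Points are the 2 samples of a stage and lines join their means. Cd5l and Timd4 run nearly level, Clec4f, Vsig4 and Cd163 climb, and Marco crosses from above Csf1r to below it.

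Relative to Csf1r, 3 of the other 9 genes were called up from E18 to adult (Clec4f, Vsig4, Cd163) and 1 down (Marco), where 31.0% of all genes were called up and 15.4% down. From E18 to P14, 3 were called up and 0 down, where the shares were 13.3% and 16.1%. The log2 changes from E18 to adult were 3.41 ± 0.22 for Clec4f, 4.64 ± 0.24 for Vsig4, 5.36 ± 0.31 for Cd163 and -4.09 ± 0.24 for Marco (limma, FDR below 0.1 for each). The ratio of Emr1 fell 2.23-fold and that of Cd68 1.45-fold, and that of Mertk rose 1.64-fold, each passing without reaching 3-fold. With Cd68 or Tyrobp, a signalling adaptor of myeloid cells, in place of Csf1r, the counts called past 3-fold were within 1.5 times these. In this test the error of a single gene was taken wholly from the trend over all genes.

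The genes with the most similar course were found by the root mean square distance of log2 CPM, centred on each gene's mean, over the 8 libraries and 13194 genes. Cd5l and Csf1r were neighbours of each other, at a distance of 0.10. Csf1r was closest to Cfp, the complement factor properdin (0.092), followed after Cd5l by Treml4 (0.11). The nearest gene to Timd4 was also Cfp (0.091), followed by Acot2 and Il18bp. Cd5l was followed by Il18bp, a soluble inhibitor of interleukin 18 (0.11), and Hk3, a hexokinase (0.15). The nearest to Cd68 were Tnfaip8l2, Lrrc25 and Pla2g16 (0.10 to 0.11).

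The nearest to Cd163 were Grb14, Pid1 and Ociad2 (0.097 to 0.14), to Clec4f Psmb9, Perp and Lgals9 (0.22 to 0.23), and to Vsig4 Gm4952, Pnkd and Elovl2 (0.20 to 0.22). Marco had no close neighbour: the nearest were Spc25, a kinetochore protein (0.33), Ckap2, which binds mitotic microtubules (0.44), and Igf2bp3, an RNA-binding protein of fetal tissue (0.46). For Emr1 they were Gyg, Ptgr1 and Slc16a1 (0.15 to 0.16), and for Mertk Sugp2, Acap2 and Agrn (0.079 to 0.10).

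Of 6 ligands of these receptors, 5 passed upward from E18 to P14 and also from E18 to adult, under TMM and under library size alike, where 38.2% and 39.5% of all genes passed upward under TMM. From P14 to adult 0 passed upward and 4 downward, where 29.0% of all genes passed upward and 32.1% downward. Hp, the haptoglobin whose complex with haemoglobin Cd163 takes up, had 5925 and 7819 reads at E18 and 584886 and 561545 at P14 (log2 change 6.89). C3, the source of the fragments that Vsig4 binds, rose by 2.51 on the log2 scale, and the Mertk bridging ligands Gas6 and Pros1 by 1.61 and 2.36. Which cells of the liver made these ligands was not tested. The ligands of Csf1r took different courses. Il34 went from 17 and 21 reads to 232 and 208 (log2 change 4.04, FDR = 6.5e-07, edgeR), while Csf1 was at 4.22 ± 0.013 (SD, n = 2) TMM-scaled RPKM at E18, followed by 4.77 ± 0.37 at P14, 4.01 ± 0.77 at P28 and finally 3.04 ± 0.15. Csf1 did not pass from E18 to P14 under TMM (log2 change 0.18) and passed as lower from E18 to adult (-0.47). With library size it passed as lower at the first step as well.

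Among 12 transcription factors known from macrophages, 5 passed upward and 6 downward from E18 to adult, and 1 did not pass. These shares are near those of all genes, of which 39.5% passed upward and 43.8% downward. The largest called changes were falls of Runx1, a regulator of blood formation (log2 change -4.58), and Spic, which drives the red-pulp macrophage program (-2.77), and rises of Nr1h3, the liver X receptor of Kupffer cells and hepatocytes (3.36), and Cebpa (3.53). These 4 directions held with library size. Nr1h3 stood at 9.51 ± 1.7 (SD, n = 2) TMM-scaled RPKM at E18 and 97.4 ± 3.3 in adult. Hepatocytes also express Nr1h3 and Cebpa, and the tissue cannot tell the sources apart. Sfpi1, the PU.1 factor whose core motif is capitalised in the sequences, is named after its values were seen: it fell at the first and last steps (-1.18 and -0.86) and by -2.12 from E18 to adult.

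The 25 other tissue macrophage genes (complement C1q chains, Fc receptors and adaptors, endocytic receptors, lysosomal genes) also moved down at the last step. From P28 to adult 0 passed upward and 19 downward, against 7.94% and 13.2% of all genes, with a median log2 change of -0.77. Siglec1, a sialic acid-binding receptor (-1.78), Cd209f, a lectin (-2.20), and C1qb (-0.96) are examples named after their values were seen. From E18 to P14, 12 passed upward and 9 downward under TMM, and 5 and 16 under library size, with 5 genes turning from higher to lower. From E18 to adult 4 passed upward and 16 downward under TMM, and 1 and 22 under library size, with 2 genes turning, where 39.5% and 43.8% of all genes passed under TMM. The largest called changes were Tyro3, a kinase of the Mertk family (-3.49), Fcgr2b, the inhibitory Fc receptor that liver sinusoidal endothelium also makes (3.08), Laptm5 (-2.43) and Lyz1 (-2.42). Lyz1 and Lyz2 are near-identical copies, so reads may have been split between them.

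In the iron and red-cell clearance list of 11 genes, 4 passed upward and 5 downward from E18 to adult, near the 39.5% and 43.8% of all genes. With library size 2 genes turned from higher to lower, which left 2 upward and 7 downward. Vcam1, the adhesion molecule of macrophages that host red-cell precursors (-5.19), and Hmox1, the enzyme that opens haem (-3.28), fell. Hpx, the plasma protein that binds free haem (3.63), and its receptor Lrp1 (2.99) rose. Whole tissue cannot tell which cells made these transcripts. Hmox1 thus moved opposite to Cd163 between E18 and P14: 31183 and 29406 Hmox1 reads became 4990 and 4317, while Cd163 went from 27 and 33 to 425 and 286.

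Markers of other cells moved at the same steps, and their part in the results was not tested. The 5 markers of macrophages of other organs had a summed level between 7.54 and 21.1 TMM-scaled RPKM in all libraries. The largest part of the P14 sum was Sall1, at 15.1 ± 1.3, and whether macrophages made it was not tested. P2ry12 and Tmem119, of microglia, were under 3, Gata6, of peritoneal macrophages, was near 3, and Siglec5 fell from 322 and 260 reads at E18 to 6 and 5 in adult. Of 10 monocyte markers, 7 were called down from E18 to adult and 0 up, against 23.8% and 16.8% of all genes, and the summed level went from 50.3 to 57.7 TMM-scaled RPKM at E18 to 8.11 to 8.27 in adult. Plac8, named after its values were seen, was the largest part of this sum, with means of 36.5 at E18 and 6.32 in adult. The log2 changes of Vcan, F13a1 and Ccr2 were -6.80, -6.59 and -3.39, and Chi3l3 had 247 and 213 reads at E18 and 0 in all P28 and adult libraries. Cx3cr1, named after its values were seen, had mean levels of 2.57 to 2.87 TMM-scaled RPKM through P28 and 0.428 in adult. Of the 10 monocyte markers, 3 passed downward at that step, P28 to adult, 0 upward and 7 did not pass. Their median log2 change was -0.27, where 13.2% of all genes passed downward and 7.94% upward.

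Among 8 dendritic cell markers 3 were called up and 2 down from E18 to adult, where 16.8% of all genes were called up and 23.8% down, with Xcr1 (2.84) and Cd209a (1.88) higher and Flt3 (-3.14) and Zbtb46 (-1.93) lower. Their summed level was below 5 TMM-scaled RPKM in each library. Transcripts of blood-forming cells fell: 8 of 8 neutrophil and 5 of 5 megakaryocyte markers were called down from E18 to adult. The summed neutrophil level went from 1358 to 1709 TMM-scaled RPKM at E18 to 277 to 301 at P14 and 2.67 to 7.10 in adult, and 2 of the granule genes, Ngp and Camp, were at 0 reads in both adult libraries. Ltf and Mpo had at most 3 reads there.

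Endothelial cells share the sinusoid with Kupffer cells. Among all genes tested, 38.2% passed upward from E18 to P14 and 28.6% downward from P14 to P28. At the last step, P28 to adult, 13.2% passed downward and 7.94% upward. Of 6 sinusoidal endothelial markers (Stab2, Lyve1, Clec4g, Kdr, Cdh5, Pecam1), 5 passed upward from E18 to P14 (3 with library size, where Cdh5 turned), 6 passed downward from P14 to P28, and 6 passed downward from P28 to adult, with a median log2 change of -0.64 at that last step. Stellate markers (Des, Reln, Lrat, Dcn, Pdgfrb) passed downward in 2 of 5 at the last step, bile duct markers (Krt19, Krt7, Sox9, Epcam, Spp1) in 0 of 5 and hepatocyte markers (Alb, Ttr, Apoa1, Tat, Tdo2, Cps1) in 1 of 6, which was Alb. T and NK cell markers were scarce, at a summed level of at most 7.42 TMM-scaled RPKM (Cd3e, Cd3g, Cd3d, Nkg7, Klrb1c, Ncr1). From P28 to adult 2 of these 6 passed downward. At this step the 10 genes, the 25 other tissue macrophage genes and the endothelial list passed mostly downward. The macrophage transcription factors were mixed, with 3 of 12 upward, 4 downward and a median log2 change of -0.17. Markers of macrophages of other organs passed downward in 1 of 5. Neutrophil markers passed downward in 3 of 8, with a median of -1.24, and the median of T and NK cell markers was -0.77. All 6 hepatocyte markers passed upward from E18 to P14 under both scalings, the same step at which Clec4f, Vsig4 and Cd163 rose. The megakaryocyte markers (Pf4, Itga2b, Ppbp, Gp9, Gp1bb) passed downward in 2 of 5 at the last step.

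**Figure D4:**
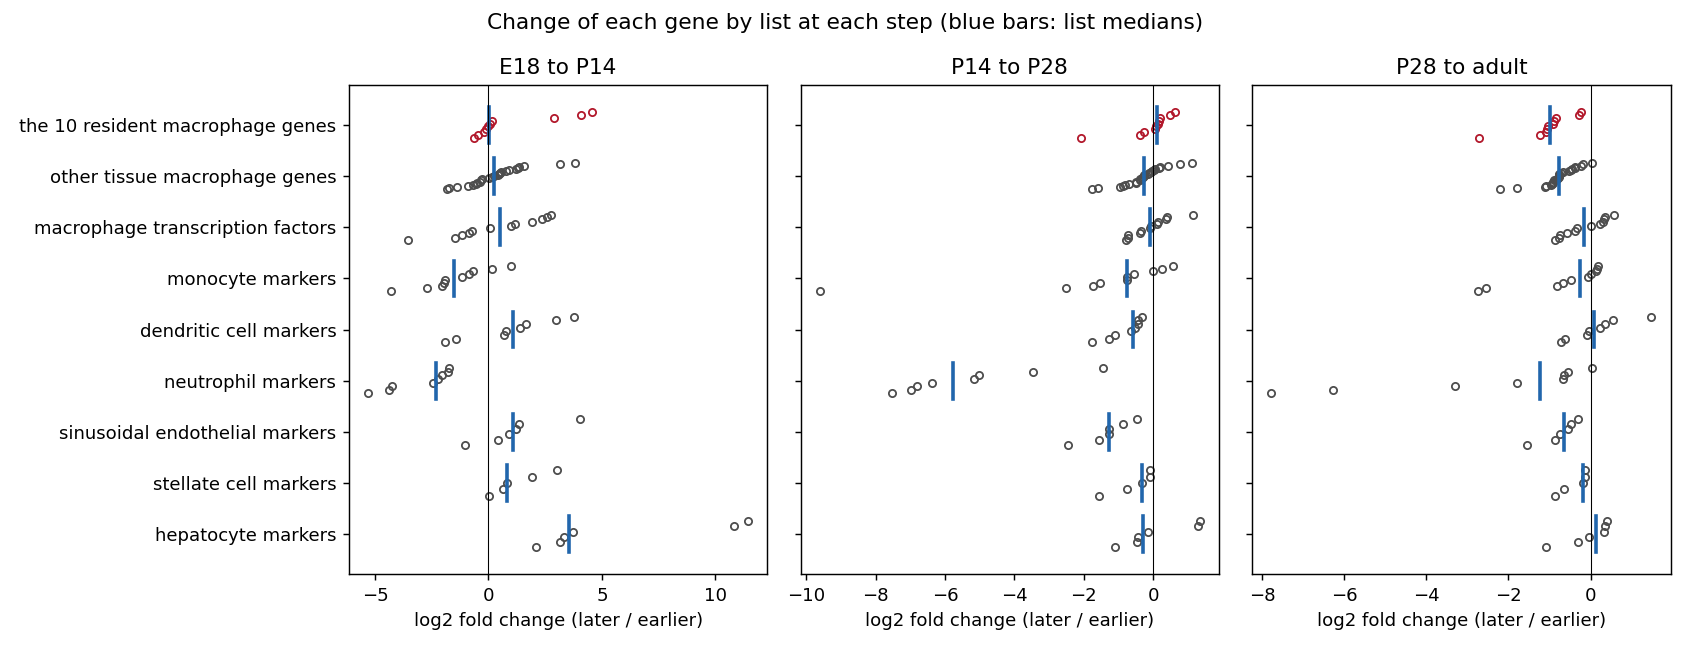
Log2 fold change of each gene (circles) at each of the 3 steps for the 10 resident macrophage genes (red) and 8 other gene lists, with list medians as blue bars (edgeR, TMM scaling, 2 samples a stage). From P28 to adult the medians of the 10 genes, of the other macrophage genes and of the endothelial markers were -0.98, -0.77 and -0.64. The median of the neutrophil markers was -1.24, and those of the other lists shown ran from -0.27 (monocyte markers) to 0.14 (hepatocyte markers). Values of genes that reach 0 reads, such as Chi3l3 and Ngp, depend on the prior count of the fit.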

How the data were processed

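Poly(A) RNA-seq of whole liver, 2 samples at each of 4 stages, was grouped by the stage in the labels. The authors describe biological duplicates. The labels do not say that samples came from separate animals, so p-values measure the spread between these samples. RNA was isolated with Trizol per the labels and with a column kit per the study's methods.

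The authors deposited raw read counts per gene symbol without normalization, and RPKM, which they computed from the counts. The submitters' processing notes name the mm9 build, and the aligner is not given in the sources used here. Counts were whole numbers. Dividing counts by RPKM gave 1 length per gene and totals of 73844259 to 112713530 reads per library, and that length was used for TMM-scaled RPKM.

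Genes kept by filterByExpr (17081) were scaled by TMM and fitted over all 8 samples with 1 coefficient per stage in edgeR (version 4.0.16, glmQLFit and glmQLFTest), with Benjamini-Hochberg adjustment. A call needed FDR below 0.1 and a change over 3-fold. Ratios to Csf1r used log2 counts with a pseudocount of 0.5 and limma (version 3.58.1). With 2 samples against 2, an exact permutation test cannot go below p = 0.33, so none was used. Summed over genes, sampling noise was small against the spread of duplicates (chi-square per degree of freedom of 52.0 to 98.8). Abundant genes weigh most in this sum, so it does not describe genes of few reads, such as Cd163 at E18 (27 and 33 reads).

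Members and lists were chosen with earlier results of these data known. The text names all 10 genes, every gene of lists of up to 6 genes, up to 4 called genes with the largest change from E18 to adult of longer lists, genes at 0 counts in a whole stage, and the 3 nearest genes of each member with a mean of at least 1 CPM. Others are marked as named after their values were seen. The erythroid and B cell lists are not reported here. Alternatives were other filters, scalings, thresholds and tools (DESeq2 version 1.42.0, and limma on log2(RPKM + 0.1) and log2(RPKM + 1)), other reference genes, the replicate block and each sample left out in turn. Library size alone for the list counts was added after the values were seen for E18 to P14. The fits were tested on simulated data. Promoter windows came from RefSeq (GRCm38.p6), another build than the files', and are used for sequence only. Fits ran in R (version 4.3.3) and figures in matplotlib (version 3.10.9) under Python (version 3.11.15).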

Additional observations from a re-analysis of the deposited data

How the results depend on the processing

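Each alternative recomputed the counts of the 10 genes called, their log2 changes and the list counts. Of 76 counts called under alternatives other than leaving out a sample, 61 stayed within 1.5 times. From P14 to adult the count went from 2 to 1 with median-ratio size factors, library size alone, DESeq2 and limma on log2(RPKM + 0.1) or log2(RPKM + 1), and from E18 to adult it went from 5 to 9 with library size and with limma on log2(RPKM + 0.1). A 2-fold threshold gave 5 from P28 to adult. The false discovery rate alone gave 5, 4, 8, 9 and 8 for E18 to P14, P14 to P28, P28 to adult, E18 to adult and P14 to adult, and, relative to Csf1r, 7 from E18 to adult and 5 from E18 to P14.

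Leaving out each sample in turn kept the counts at 3 (E18 to P14), 1 (P14 to P28), 1 (P28 to adult) and 5 (E18 to adult), and the counts relative to Csf1r at 4 and 3, and gave 1 to 2 from P14 to adult.

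Signs turned only in changes near 0 that had not passed in the fit as reported. From E18 to P14, Cd5l came to -0.014 with no filter, -0.10 with at least 10 counts, -0.043 with median-ratio factors and -0.043 with DESeq2, and Csf1r to -0.060 with at least 10 counts. With library size Timd4, Cd5l and Csf1r came to -0.70, -0.86 and -0.82, with limma on log2(RPKM + 0.1) to -0.66, -0.81 and -0.79, and on log2(RPKM + 1) to -0.59, -0.79 and -0.76. Left-out samples turned Cd5l (-0.34 to 0.45), Csf1r (-0.14 to 0.27), Timd4 (-0.080 to 0.47) and Mertk (-0.20 to 0.048) from E18 to P14, Vsig4 (-0.062 to 0.24), Cd5l (-0.026 to 0.34), Csf1r (-0.030 to 0.30) and Cd68 (-0.0053 to 0.13) from P14 to P28, and Mertk (-0.22 to 0.030) from P14 to adult. The cause was not tested.

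Deviations of same-numbered samples correlated at r from -0.30 (P28 and adult) to 0.12 (E18 and P28), over 6 pairs and 13195 genes. Whether same-numbered samples shared a preparation was not tested. With the replicate number as a block the counts called were 3, 1, 1, 5 and 2, and 4 and 3 relative to Csf1r, the same as without it. Depth limits Cd163 at E18, with 27 and 33 reads.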

Other observations

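The balance among receptors within a library differed between E18 and adult, as ratios of reads per base of transcript that need no scaling between libraries. These pairs are given as values, with no test. Marco exceeded Vsig4 39.5-fold and 31.3-fold in the E18 libraries, stood at 1.15 and 1.42 times Vsig4 at P14, and at 0.0913 and 0.0748 times in adult. Marco was 4.82 and 3.84 times Clec4f at E18, while Clec4f was 38.5 and 46.1 times Marco in adult. Clec4f was 1.20 and 1.37 times Emr1 at E18 and 30.8 and 29.9 times Emr1 in adult. Cd163 and Marco, which differed 804-fold and 682-fold at E18, were nearly level in adult, at ratios of 0.848 and 1.06. Summed over the 10 genes after TMM scaling, the level was 129 to 179 RPKM at E18 and 214.5 to 238.9 at P14. It was 215 to 261 at P28 and 120 to 124 in the adult pair. The rank of E18 among these sums depends on the scaling. With library size alone in place of TMM, the median log2 change of all genes moved by -0.87 from E18 to P14. Clec4f and Cd5l, with means of 94.7 and 62.5, were the largest parts of the P28 sum.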
